A study of Mus musculus with 6 samples.

Results

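The ERK feedback genes described here are 10 genes whose products restrain signalling from Ras to the kinase ERK or are transcribed when ERK is active. They were taken by symbol: the dual-specificity phosphatase genes Dusp4, Dusp5 and Dusp6, the Sprouty genes Spry1, Spry2 and Spry4, the Sprouty-related genes Spred1 and Spred2, the ETS factor gene Etv5, and Phlda1. Each symbol stood on 1 row of the deposited table, which holds 37447 genes, so all 10 members were found. RNA came from flow-sorted microglia, the macrophages that live in nervous tissue, of optic nerves of C57BL/6 mice aged 3 months. The FMC mice had the genotype Nf1 flox/mut; GFAP-Cre (4 libraries, FMC 2 and FMC 3 male, FMC 1 and FMC 4 female). The FM mice had the genotype Nf1 flox/mut without the Cre transgene (2 libraries, FM 1 male and FM 2 female). Both groups therefore carry a mutant and a floxed allele of Nf1, and the GFAP promoter drives Cre in astroglial cells. The series describes the microglia as associated with Nf1 optic glioma. The labels leave unsaid whether a library pools animals.

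ERK is the last kinase of the Ras-Raf-MEK cascade and is held in check by genes that it induces itself. Neurofibromin, the Nf1 product, is a GTPase-activating protein that turns Ras off, and Spred1 protein binds neurofibromin and brings it to the membrane. In microglia the cascade lies downstream of receptors such as Csf1r, and Dusp6, Spry4, Etv5 and Phlda1 are widely used as transcript readouts of ERK activity. The comparison of FMC with FM asks whether these readouts differ in microglia from nerves of mice in which Nf1 is also deleted in astroglia.

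The values are FPKM, fragments scaled to transcript length and to the mapped fragments of the library, a level relative to the rest of its library. Summed over all genes, the libraries held 420285 to 674799 FPKM. Depth relative to FMC 2, read from the commonest ratio of values under 0.1 FPKM, was 1.37, 1.96 and 2.13 in FMC 1, FMC 3 and FMC 4, and 1.17 and 3.36 in FM 1 and FM 2. Of 37 mitochondrial genes 32 are listed at 0 in all libraries, so a 0 may be a failed estimate and is called listed at 0 here. All 10 microglial markers examined (among them Csf1r, P2ry12 and Tmem119) were present, with a summed level of 2865 to 4284 FPKM in FMC and 2787 and 5091 FPKM in FM. Nf1 itself was at 48.0, 58.1, 55.6 and 138 FPKM in FMC 1 to FMC 4 and at 39.3 and 50.0 FPKM in FM 1 and FM 2. A level in microglia does not check a deletion made in astroglia.

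The 10 members split by level in these cells. Dusp6 and Etv5 were abundant, Spred1 and Spred2 were at a moderate level in all 6 libraries, Spry1 and Spry2 reached 1 FPKM in 2 libraries each, Dusp4 in 1, and Dusp5, Spry4 and Phlda1 in none. Dusp6 and Etv5 together made up 79.2% to 94.4% of the summed FPKM of the 10 members in FMC, and 82.8% and 92.8% in FM. No member passed the test between genotypes: limma on log2(FPKM + 1) over 18208 genes called 0 of the 6 members that could be tested at an adjusted p under 0.05, and 1 (Spry2, lower in FMC) at an unadjusted p under 0.05. Over all genes tested the call rates were 0.0275% and 5.34%, the unadjusted one made up of 1.14% higher and 4.20% lower in FMC. The log2 difference was positive in 1 of the 6 members (Spred1) and negative in 5, where 43.5% of all genes were positive and 56.5% negative. With 2 FM libraries and a median residual SD of 0.84 (log2) over all genes, most intervals below are several doublings wide. A p that misses the threshold does not show that the genotypes are alike.

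**Figure D1:**
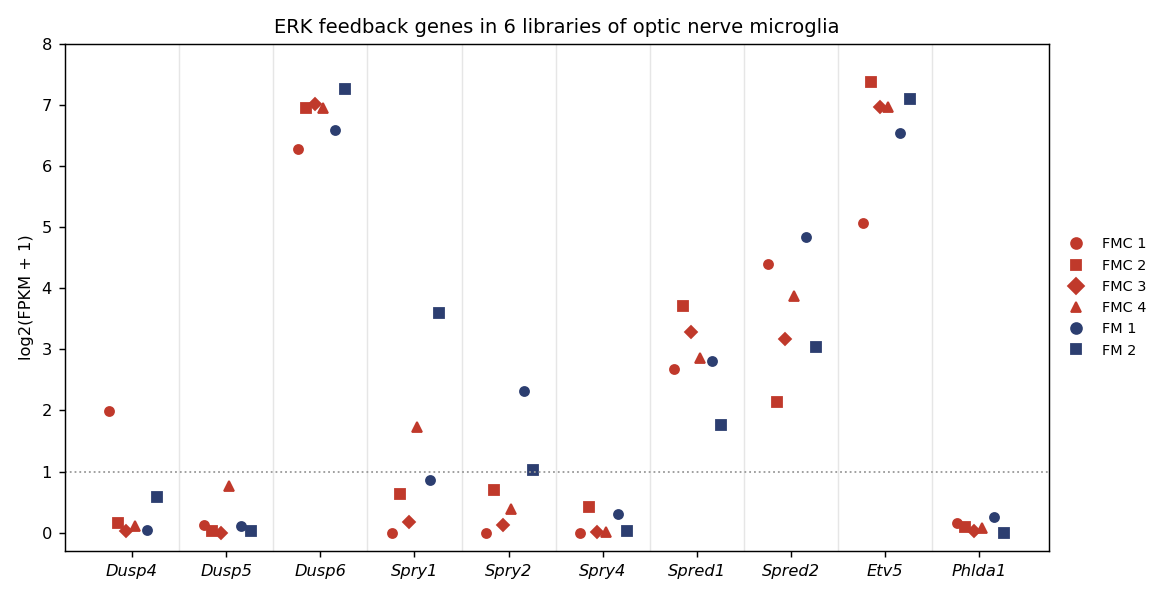
Level of each of the 10 members in each library as log2(FPKM + 1), FMC libraries in red and FM libraries in blue; the dotted line marks 1 FPKM. Dusp6 and Etv5 lie far above the other members, and the groups overlap in all members but Spry2, where the 4 FMC points lie below both FM points.

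The start-site regions of 5 members are shown because they cover the range from the most abundant to nearly silent genes. They run from 250 bases before to 50 bases after the annotated start and were taken from RefSeq on GRCm38.p6, another build than the mm9 of the deposited table. Windows were matched for 7 members, not for Dusp4, Spry4 and Phlda1. Etv5 has 2 windows, of which the more 5′ is printed. Capitals mark matches, on either strand, to the cyclic AMP response element core TGACGT, the AP-1 motif TGANTCA, the ETS core CCGGAA or the CArG box bound by serum response factor. The windows are Dusp6 (chr10:99262981-99263280, plus strand), Etv5 (chr16:22439521-22439820, minus strand), Spred2 (chr11:19924192-19924491, plus strand), Spry2 (chr14:105896770-105897069, minus strand) and Dusp5 (chr19:53528895-53529194, plus strand).
Dusp6: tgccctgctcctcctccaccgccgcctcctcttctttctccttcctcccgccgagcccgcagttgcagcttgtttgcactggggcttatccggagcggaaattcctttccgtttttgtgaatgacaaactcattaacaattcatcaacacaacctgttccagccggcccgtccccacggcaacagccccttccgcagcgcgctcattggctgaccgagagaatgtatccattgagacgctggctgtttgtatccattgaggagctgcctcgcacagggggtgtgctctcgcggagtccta
Etv5: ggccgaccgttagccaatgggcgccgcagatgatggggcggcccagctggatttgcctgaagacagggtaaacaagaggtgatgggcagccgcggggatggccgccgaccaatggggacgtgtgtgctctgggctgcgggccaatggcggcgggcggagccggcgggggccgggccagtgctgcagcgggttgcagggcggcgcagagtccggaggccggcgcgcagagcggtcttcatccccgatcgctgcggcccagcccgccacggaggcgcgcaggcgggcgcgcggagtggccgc
Spred2: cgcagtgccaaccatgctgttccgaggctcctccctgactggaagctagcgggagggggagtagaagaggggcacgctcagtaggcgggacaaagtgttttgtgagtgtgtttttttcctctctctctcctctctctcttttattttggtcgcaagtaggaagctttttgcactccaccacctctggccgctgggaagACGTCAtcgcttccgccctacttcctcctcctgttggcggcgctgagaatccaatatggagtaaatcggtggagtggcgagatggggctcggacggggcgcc
Spry2: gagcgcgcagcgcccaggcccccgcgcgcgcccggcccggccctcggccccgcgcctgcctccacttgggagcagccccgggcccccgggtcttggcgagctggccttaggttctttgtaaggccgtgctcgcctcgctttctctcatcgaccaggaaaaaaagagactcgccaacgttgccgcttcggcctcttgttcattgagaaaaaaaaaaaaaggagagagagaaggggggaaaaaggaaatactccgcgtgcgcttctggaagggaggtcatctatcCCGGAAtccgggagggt
Dusp5: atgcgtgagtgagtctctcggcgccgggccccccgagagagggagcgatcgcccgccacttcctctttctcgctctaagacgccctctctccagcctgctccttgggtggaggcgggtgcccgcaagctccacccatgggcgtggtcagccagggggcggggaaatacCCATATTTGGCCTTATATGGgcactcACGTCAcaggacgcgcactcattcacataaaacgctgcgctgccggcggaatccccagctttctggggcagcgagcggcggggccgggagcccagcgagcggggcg

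The windows of Dusp6 and Etv5, the abundant members, held 0 matches to the 4 motifs. Dusp5, which was near 0 FPKM in the same cells, held 2 CArG boxes that begin 82 and 72 bases upstream of the start, and a cyclic AMP element core 56 bases upstream. Spred2 held a cyclic AMP element core 52 bases upstream, and Spry2 an ETS core that begins at base 34 after the start. The windows of Spry1 and Spred1 also held 0 matches, and no member's window held the AP-1 motif. Of 32851 windows of this length, 7.51% held the cyclic AMP element core, 7.81% the AP-1 motif, 14.9% the ETS core and 1.63% a CArG box. These are matches of letters only and say nothing of binding.

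Dusp6 encodes a cytoplasmic phosphatase that removes phosphate from ERK. It lies on chromosome 10 from 98725864 to 98730122 in mm9 (ENSMUSG00000019960). It was at 77.0, 123, 128 and 123 FPKM in FMC 1 to FMC 4, and at 95.7 and 152 FPKM in FM 1 and FM 2. The groups overlapped: FMC 1 was the lowest library, the other FMC libraries were nearly equal, and both FM libraries lay on either side of those. The means were 113 ± 23.9 FPKM in FMC (SD, n = 4) and 124 ± 39.6 FPKM in FM (SD, n = 2). The log2 difference was -0.12 ± 0.45 (SE), a ratio of 0.918 with a 95% interval of 0.449 to 1.87 (limma adjusted p = 0.999). In this fit a 2-fold rise lies outside that interval and a fall to 0.5 of the FM level inside it. That bound does not hold in every fit. With a block for libraries dated 1 day apart, the difference was 0.058 with a larger SE of 0.56, which does not set a 2-fold rise outside. Dusp6 had the smallest SE of the 6 tested members. Its residual SD was 0.38 (log2), and 17.8% of the 1110 tested genes with a mean within a factor of 2 of its own had a smaller SD. In every library Dusp6 stood above at least 92.2% of the genes at 1 FPKM or higher.

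Both other phosphatase genes were near the floor. Dusp4, which encodes a nuclear phosphatase of ERK (chromosome 8, 35870350 to 35882948), was at 2.96, 0.119, 0.0203 and 0.0823 FPKM in FMC 1 to FMC 4 and at 0.0347 and 0.493 FPKM in FM 1 and FM 2. FMC 1 alone stood above 1 FPKM, so Dusp4 did not enter the fit (exact two-sided permutation test, p = 1.0). Dusp5 encodes a phosphatase that also acts on ERK in the nucleus (chromosome 19, 53603598 to 53616921). It was at 0.0955, 0.0218 and 0.702 FPKM in FMC 1, FMC 2 and FMC 4 and listed at 0 in FMC 3. In FM it was at 0.0760 and 0.0192 FPKM (exact permutation test, p = 0.8). With 15 ways to choose 4 of 6 libraries, this test cannot give a p under 0.0667.

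Etv5 encodes an ETS transcription factor that ERK signalling induces (chromosome 16, 22381381 to 22439792, ENSMUSG00000013089). It was at 32.7, 165, 125 and 124 FPKM in FMC 1 to FMC 4 and at 92.1 and 137 FPKM in FM 1 and FM 2. FMC held both the lowest and the highest library, with both FM libraries between them. The means were 112 ± 56.0 FPKM in FMC (SD, n = 4) and 114 ± 31.5 FPKM in FM (SD, n = 2). The log2 difference was -0.23 ± 0.66 (SE), a ratio of 0.855 with a 95% interval of 0.301 to 2.42 (limma adjusted p = 0.999). Without FMC 1 the sign turned, to 0.28 for Etv5 and to 0.05 for Dusp6, and median ratio scaling alone turned Dusp6 to 0.029. Without FM 2 the differences were 0.055 for Etv5 and 0.21 for Dusp6.

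Because both genes are read in the same library, their ratio does not depend on scaling. Etv5 over Dusp6 was 0.425, 1.34, 0.976 and 1.01 in FMC 1 to FMC 4 and 0.963 and 0.900 in FM 1 and FM 2. In 4 of the 6 libraries this ratio lay between 0.900 and 1.01, while Etv5 was below Dusp6 by more than a doubling in FMC 1 and above it in FMC 2. Over the 6 libraries the log2 levels of Dusp6 and Etv5 had a Pearson r of 0.886, given as a description with n = 6 and resting in part on FMC 1, low in both. Among 8166 named genes with a mean of at least 5 FPKM, 143 were more like Dusp6 than Etv5 was. The 3 most like Dusp6 were Ehd4 (r = 0.992), Jarid2 (0.990) and Elmo2 (0.989), and the 3 most like Etv5 were Vps8 (0.994), Agps (0.990) and Nbea (0.986). Of the 8166 genes, 38 were above 0.95 for Dusp6 and 24 for Etv5.

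**Figure D2:**
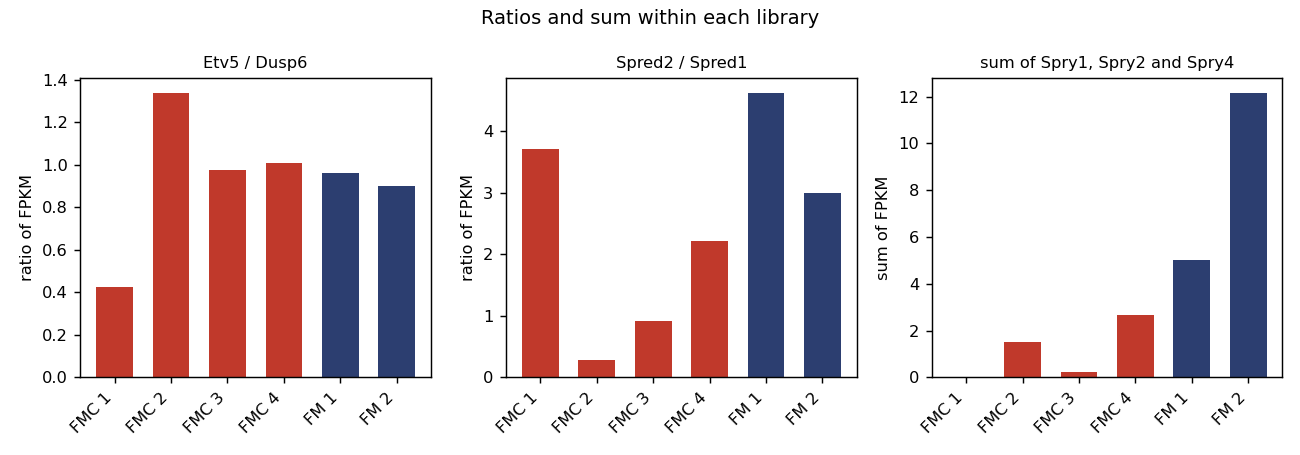
Ratio of Etv5 to Dusp6 FPKM, ratio of Spred2 to Spred1 FPKM and summed FPKM of Spry1, Spry2 and Spry4, 1 bar per library, FMC in red and FM in blue. The Etv5 to Dusp6 ratio lies between 0.900 and 1.01 in 4 libraries. The summed Sprouty level is at most 2.65 FPKM in FMC, with each gene listed at 0 in FMC 1. It is 5.03 and 12.2 FPKM in FM.

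Spred1 and Spred2 encode membrane-bound inhibitors of Ras-ERK signalling with a Sprouty-like cysteine-rich end. Spred1 (chromosome 2, 116947109 to 117008015) was at 5.44, 12.1, 8.78 and 6.22 FPKM in FMC 1 to FMC 4 and at 5.97 and 2.41 FPKM in FM 1 and FM 2. The groups overlapped, since FMC 1 lay under FM 1, and FM 2 was the lowest of all. The means were 8.14 ± 3.02 FPKM in FMC (SD, n = 4) and 4.19 ± 2.52 FPKM in FM (SD, n = 2). Spred1 was the only tested member with a positive log2 difference, 0.85 ± 0.70 (SE), with a 95% interval of -0.74 to 2.44 (limma adjusted p = 0.993). Over the 16 alternative fits the difference ran from 0.33 to 1.37. Other filters, no intensity trend and sex as a covariate cannot change this estimate, and all fits reuse the same libraries.

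Spred2 (chromosome 11, 19824377 to 19924029) was at 20.2, 3.40, 8.01 and 13.7 FPKM in FMC 1 to FMC 4 and at 27.6 and 7.20 FPKM in FM 1 and FM 2. The groups overlapped: FM 1 was the highest library and FM 2 the second lowest. The means were 11.3 ± 7.24 FPKM in FMC (SD, n = 4) and 17.4 ± 14.4 FPKM in FM (SD, n = 2). The log2 difference was -0.54 ± 0.81 (SE; limma adjusted p = 0.999). Without FM 1 it was 0.36. Spred2 exceeded Spred1 in FMC 1 and FMC 4, with ratios of 3.71 and 2.21, and was below it in FMC 2 and FMC 3, with 0.281 and 0.912, against ratios of 4.62 and 2.99 in FM 1 and FM 2. The difference in this ratio between genotypes was not tested, and FMC 1 lay between the FM values.

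Sprouty proteins block growth factor receptors from activating Ras and are themselves induced by ERK. Spry1 (chromosome 3, 37538868 to 37543520) was listed at 0 in FMC 1 and was at 0.542, 0.127 and 2.33 FPKM in FMC 2 to FMC 4, against 0.818 and 11.1 FPKM in FM 1 and FM 2. The groups overlapped, because FMC 4 lay above FM 1. Its log2 difference was -1.60 ± 0.90 (SE; 95% interval -3.63 to 0.43; limma adjusted p = 0.993). It passed the filter, 1 FPKM in 2 libraries, through FM 2 and FMC 4, and fell under it without either. Without FM 1 the difference was -2.97.

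Spry2 (chromosome 14, 106291165 to 106296036) was listed at 0 in FMC 1 and was at 0.619, 0.0880 and 0.312 FPKM in FMC 2 to FMC 4, against 3.97 and 1.04 FPKM in FM 1 and FM 2. It was the member whose groups did not overlap: all 4 FMC libraries lay below both FM libraries, as in 8.22% of all genes tested, while 4.34% lay above. The log2 difference was -1.37 ± 0.56 (SE), with a 95% interval of -2.63 to -0.10. At an unadjusted p of 0.0373 and a limma adjusted p of 0.864 it did not pass. Spry2 reached 1 FPKM in the FM libraries alone, so the filter let it in through the group where it was high. Without either FM library, and after median ratio scaling or a filter on a mean of 5 FPKM, it fell under the filter.

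Spry4 (chromosome 18, 38745921 to 38760922) was listed at 0 in FMC 1 and was at 0.339, 0.00522 and 0.00953 FPKM in FMC 2 to FMC 4, against 0.241 and 0.0153 FPKM in FM 1 and FM 2 (exact permutation test, p = 0.8). All 3 Sprouty genes were listed at 0 in FMC 1. They summed to 1.50, 0.220 and 2.65 FPKM in FMC 2 to FMC 4. In FM 1 and FM 2 the sums were 5.03 and 12.2 FPKM. The high sum came from Spry2 in FM 1 and from Spry1 in FM 2, so different genes made it up. The sum was not tested between genotypes, and in Spry1 and Spry4 taken alone the groups overlapped.

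Phlda1, a pleckstrin-homology-like gene that ERK signalling induces (chromosome 10, 110943341 to 110945705), was at 0.111, 0.0611, 0.0159 and 0.0567 FPKM in FMC 1 to FMC 4. It was at 0.188 FPKM in FM 1 and listed at 0 in FM 2 (exact permutation test, p = 0.667). Phlda1 and Spry4, used elsewhere as ERK readouts, were thus close to the floor in all 6 libraries. No call between genotypes could be had for them, as 0.0667 is the smallest p that the permutation test allows.

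**Figure D3:**
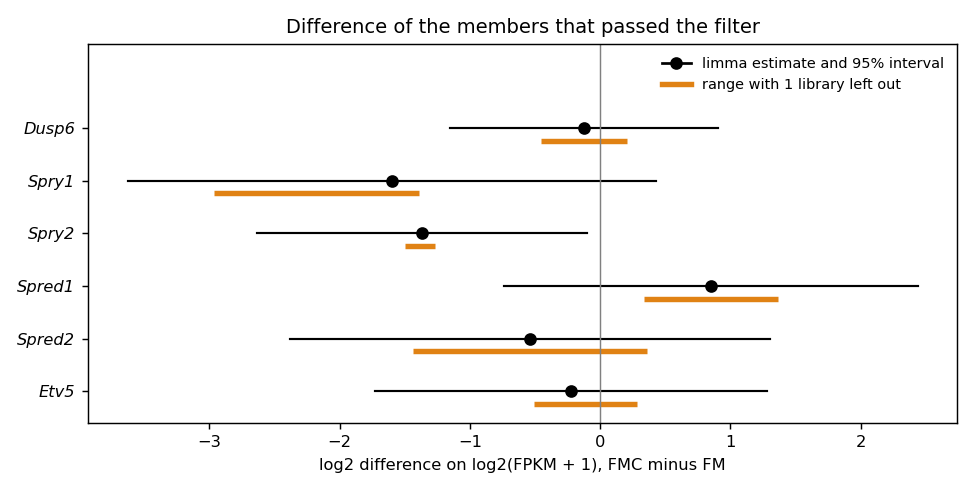
Log2 difference, FMC minus FM, on log2(FPKM + 1) for the 6 members that passed the filter: limma estimate with 95% interval in black, and the range of estimates with 1 library left out in orange. The interval includes 0 for all but Spry2 (-2.63 to -0.10), whose adjusted p is 0.864.

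Males and females were compared in the same way. Limma with genotype kept in the model called 0 of 6 members between males and females at an adjusted p under 0.05, and 0 at an unadjusted p under 0.05, where 0% and 7.44% of all genes were called (1.88% higher and 5.55% lower in males). The largest difference was in Spry1, with a male minus female log2 difference of -1.22 ± 0.78 (SE; adjusted p = 0.785). For the interaction of genotype with sex 0 members passed and 1, Spred2, was under 0.05 unadjusted (limma, -3.29 ± 1.23 SE; adjusted p = 0.999), where 0% and 3.77% of genes were called, 1.99% with a positive and 1.78% with a negative estimate. It is the genotype difference in males minus that in females. The Spred2 estimate sets 2 libraries against 2 among FMC and 1 against 1 among FM.

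Titles carry dates 1 day apart for FMC 2 and FM 1 and for FMC 3 and FM 2, and what the dates mark is not stated. Within these pairs, in that order, FMC minus FM on the log2 scale was 0.36 and -0.25 for Dusp6, 0.83 and -0.13 for Etv5, and -2.70 and 0.14 for Spred2. The signs differed between the pairs for all 3. Spred1 was higher in FMC in both pairs (0.91 and 1.52), and Spry1 (-0.24 and -3.43) and Spry2 (-1.62 and -0.90) were lower in both. For Spry2 every pair of an FMC with an FM library must be lower, since its groups do not overlap. FMC 3 and FM 2 also differ in sex.

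FMC 1 stood apart in several members: it had the lowest Dusp6 and Etv5, the highest Dusp4, and all 3 Sprouty genes listed at 0. In the same library T cell markers (6 of 6 in the table) summed to 85.7 FPKM, against 19.7 to 30.3 FPKM in the other FMC libraries and 17.4 and 21.8 FPKM in FM. Markers of mural cells and fibroblasts (8 of 8) summed to 104 FPKM there, of which Dcn made up 90.2 FPKM, against 10.5 to 14.4 FPKM in the other FMC libraries and 24.7 and 32.5 FPKM in FM. B cell markers summed to 111 FPKM in FMC 1 and to 106 FPKM in FM 2. In bulk RNA, fewer cells of a type and less RNA per cell cannot be told apart, and the part of these cells in the members' levels was not tested.

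Markers of other glia, which are known to express Etv5 and Sprouty genes, were low but not absent, and their part in the members' levels was not tested. Precursor markers of oligodendrocytes (6 of 6 in the table) summed to 1.70 to 14.8 FPKM in FMC and to 3.92 and 2.05 FPKM in FM. Of these, Olig2 was at 9.36 and 8.63 FPKM in FMC 2 and FMC 4 and under 1 FPKM in the other 4 libraries. Sox10 reached 3.49 FPKM in FMC 1 and 2.19 FPKM in FM 1, and Cspg4 4.10 FPKM in FMC 2 and 1.06 FPKM in FM 2. These 3 markers passed the filter, each with a positive difference and none called, while Pdgfra, Olig1 and Gpr17 were under 1 FPKM in all libraries. Markers of oligodendrocytes (7 of 7) summed to 24.8 to 45.9 FPKM in FMC, highest in FMC 1, and to 16.7 and 33.6 FPKM in FM. Of these, 6 passed the filter, 3 with a positive and 3 with a negative difference, and 0 were called. Mbp was highest in FMC 1, at 17.9 FPKM, and Cnp was at 21.6 FPKM in FMC 1 and 22.5 FPKM in FM 2. The astrocyte list (7 of 7) summed to 119.9 to 121.7 FPKM in FMC and to 118 and 145 FPKM in FM, most of it Slc1a3 (104 to 120 FPKM in FMC, 108 and 130 FPKM in FM), a gene that macrophages can also express. Gfap was at 0.224 to 0.309 FPKM in FMC and at 0.183 and 3.06 FPKM in FM 1 and FM 2. Gja1 was at 2.85, 1.42, 0.0292 and 6.43 FPKM in FMC 1 to FMC 4 and at 1.30 and 9.77 FPKM in FM 1 and FM 2. FM 2, the library with the highest Spry1, thus had the highest Gfap and Gja1. Aldh1l1 was highest in FMC 4, at 8.19 FPKM, and Slc1a2 in FMC 2, at 7.78 FPKM, with 5.90 FPKM in FM 1. Several of these levels are as high as those of Spry1 and Spry2 in the same library or higher. Endothelial markers (7 of 7) summed to 15.1 to 31.2 FPKM in FMC and to 24.1 and 18.9 FPKM in FM. Pecam1 was at 2.58 to 20.1 FPKM in FMC and at 4.24 and 12.2 FPKM in FM, and Kdr at 0.382 to 16.7 FPKM in FMC and at 4.21 and 3.18 FPKM in FM, while Cldn5 was listed at 0 in 3 libraries. Markers of border-associated macrophages (4 of 4) summed to 118 to 274 FPKM in FMC and to 273 and 297 FPKM in FM. They were mostly lower in FMC, as was the summed Sprouty level, which was not tested. In FMC 1, where all 3 Sprouty genes are listed at 0, these macrophage markers were at 274 FPKM. The part of these macrophages in the Sprouty values was not tested. Markers of monocytes and neutrophils (6 of 6) summed to 88.7 to 387 FPKM in FMC and to 329 and 71.0 FPKM in FM.

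The rest of the pathway was read from 4 further lists. Of the other MAPK phosphatase genes 7 of 9 were tested, and 0 were called (limma, 0 also at an unadjusted p under 0.05). Their median log2 difference was -0.42, where the median over all genes tested was -0.12. Dusp1, the stress-induced phosphatase gene, was at 86.2, 114, 252 and 49.7 FPKM in FMC 1 to FMC 4 and at 161 and 124 FPKM in FM, a level like that of Dusp6. Dusp3 was at 25.6 ± 9.73 FPKM in FMC (SD, n = 4) and 68.0 ± 51.9 FPKM in FM (SD, n = 2; log2 difference -1.20 ± 0.60 SE, adjusted p = 0.993). The Dusp3 difference was -0.34 without FM 2 and -2.05 without FM 1. Dusp16, whose product prefers the kinases JNK and p38, was at 1.32 ± 0.995 FPKM in FMC and 3.90 ± 1.55 FPKM in FM (limma adjusted p = 0.993). All its FMC libraries lay below both FM, as in 8.22% of all genes tested. Dusp10, also a phosphatase of JNK and p38, was at 3.88 ± 3.65 FPKM in FMC and 9.05 ± 9.74 FPKM in FM (adjusted p = 0.998).

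Of 13 other inhibitors of Ras-ERK signalling 12 were in the table and 9 were tested. Limma called 0 of them, and their median log2 difference was 0.32. At an unadjusted p under 0.05 there was 1, against 5.34% of all genes tested. That 1 was Errfi1, the feedback inhibitor of the EGF receptor, at 4.40, 9.14, 7.32 and 2.95 FPKM in FMC 1 to FMC 4 and at 17.6 and 24.2 FPKM in FM 1 and FM 2. All FMC libraries lay below both FM libraries, as in 8.22% of all genes tested (log2 difference -1.73 ± 0.65 SE, limma adjusted p = 0.790). Cblb lay the other way, as did 4.34% of all genes tested. It was at 13.9 to 23.0 FPKM in FMC and at 12.6 and 11.3 FPKM in FM 1 and FM 2 (limma adjusted p = 0.994). Cbl, a ubiquitin ligase of activated receptors, was at 49.3 ± 42.8 FPKM in FMC and 22.6 ± 3.04 FPKM in FM (adjusted p = 0.993), the FMC mean resting on 113 FPKM in FMC 2. Nf1 had a log2 difference of 0.61 ± 0.53 (SE; adjusted p = 0.993).

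Among 19 ERK-induced transcription factors and targets 14 were tested, 11 with a negative and 3 with a positive log2 difference, and limma called 0 (0 also unadjusted). Their median was -0.41. Negative differences made up 56.5% over all genes tested. Jun, a subunit of AP-1, was at 232, 248, 306 and 136 FPKM in FMC 1 to FMC 4 and at 319.9 and 513 FPKM in FM 1 and FM 2. For Jun all FMC libraries lay below both FM, as in 8.22% of all genes tested (log2 difference -0.87 ± 0.51 SE, limma adjusted p = 0.993). Junb, its relative, was at 46.9 ± 25.5 FPKM in FMC and 86.5 ± 26.7 FPKM in FM, and Ier3 at 5.80 ± 4.39 FPKM in FMC and 11.0 ± 1.77 FPKM in FM (adjusted p = 0.993 for both). All 3 are immediate early genes. FMC 1, the lowest library for Dusp6 and Etv5, was also the lowest for Fos (8.52 FPKM, against 29.3 to 101 FPKM in the other 5), Junb, Ier2 and Ier3. It was the highest for Egr2 (84.1 FPKM, against 9.17 and 25.9 FPKM in FMC 2 and FMC 4 and 25.1 and 34.4 FPKM in FM), and the lowest library for Egr1, Egr3 and Jun was FMC 4.

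The core of the cascade was present. All 15 genes in the table were tested, and limma called 0. At an unadjusted p under 0.05 there were 2, against 5.34% of all genes tested. Araf, a Raf kinase gene, was at 140.4, 86.9, 69.0 and 81.1 FPKM in FMC 1 to FMC 4 and at 26.4 and 57.0 FPKM in FM 1 and FM 2 (log2 difference 1.21 ± 0.51 SE, adjusted p = 0.887). Map2k1, which encodes MEK1, was at 12.7, 23.1, 23.7 and 33.0 FPKM in FMC and at 61.8 and 44.6 FPKM in FM (-1.22 ± 0.52 SE, adjusted p = 0.895). Neither group overlapped the other in these 2 genes, nor in Ksr1, a scaffold of the cascade, nor in Sos2. All FMC libraries were above both FM in 3 of the 15 genes and below in 1, against 4.34% and 8.22% of all genes tested. Ksr1 was at 5.01 ± 3.71 FPKM in FMC and 0.526 ± 0.285 FPKM in FM (limma adjusted p = 0.993). Sos2 was at 14.3 ± 10.4 FPKM in FMC and 5.10 ± 0.625 FPKM in FM (limma adjusted p = 0.993). Ksr1 passed the filter through FMC alone, where it is high, and its nearest libraries were FMC 2 at 0.752 FPKM and FM 2 at 0.727 FPKM.

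**Figure D4:**
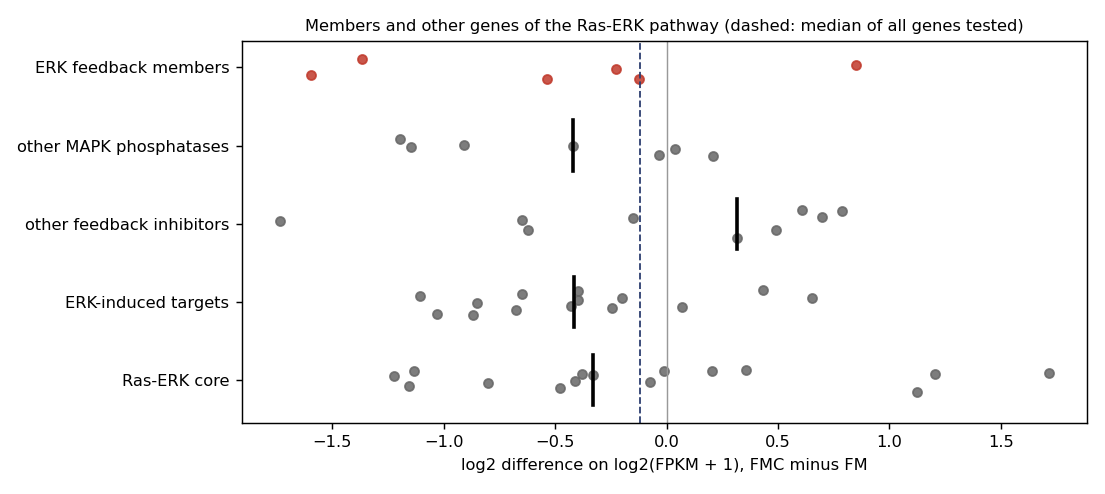
Log2 difference, FMC minus FM, on log2(FPKM + 1) for each tested gene of the members (red) and of 4 other lists of the pathway (grey); black bars are medians of those 4 lists, and the dashed line is the median over all genes tested, -0.12. Each list holds genes on both sides of 0, and no gene shown passed the test.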

How the data were processed

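The deposited table gives FPKM by the authors per Ensembl gene and library. The build mm9 and the tools Cufflinks 2.0.2, TopHat2 2.0.4, CASAVA 1.8.2 and Bowtie2 2.0.0 come from the submitters' processing notes, which give no roles here. Per the labels' protocols, cDNA was made from total RNA with the Ovation RNA-Seq method. Read totals and the strand setting of counting are not given in the sources used here; no member's locus overlaps another gene of the table. Of 37447 genes 426 lack a value in some library and were left out of fits.

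Values were tested as log2(FPKM + 1) over 18208 genes at 1 FPKM or more in at least 2 libraries, with limma 3.58.1 in R 4.3.3 (intensity trend, two-sided, Benjamini-Hochberg over all genes, threshold 0.05). Folds on this scale understate changes of low genes. Members under the filter had exact permutation tests (SciPy 1.17.1). Means ± SD are not given for genes listed at 0 in a library. The fit was tested on simulated data. Libraries were grouped by their descriptions, which call them biological replicates. Male and female libraries came from different animals, as did FM 1 and FM 2. For FMC libraries of the same sex nothing says whether the animals were separate. The p-values rest on the spread between these libraries, which may in part be technical.

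The members and lists were chosen with earlier results of these data known. The text names all members, and of each other list the 3 genes of smallest p. Dusp1, Fos, Ier2, Egr1, Egr2, Egr3, Sos2 and Cblb were added after their values were seen. Promoter sequences are from RefSeq (GRCm38.p6). Some genes of the lists were not analysed here (Spry3, Hras, Tubb3), and Egr2 has no value in FMC 3. Alternatives were another pseudocount, filters, scalings, weights, covariates, blocks, and omission of each library.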

Additional observations from a re-analysis of the deposited data

Results flagged for a closer look

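Within the 4 FMC libraries, 3 members had a library far from the others by Dixon's ratio (gap to the nearest value over the range, on log2(FPKM + 1)), past the 95% critical value. Chance flags about 1 in 20 groups, and 22 genes were screened. Dusp6 had its lowest FMC library, FMC 1 at 77.0 FPKM, at a ratio of 0.920 from the other 3, which lay between 123 and 128 FPKM. Dusp4 had its highest, FMC 1 at 2.96 FPKM, at a ratio of 0.932. Spry4 had its highest, FMC 2 at 0.339 FPKM, at a ratio of 0.968, although all its values are under 1 FPKM.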

How the results depend on the processing

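No member passed the threshold in any of the alternative fits that could test it, for genotype, sex or the interaction. The count of all genes called was 5, all lower in FMC. It was 1 (higher in FMC) with a pseudocount of 0.1, 33 with no filter, 0 with a mean of at least 5 FPKM, 10 without the intensity trend, 0 with sex as a covariate and 3 (2 higher, 1 lower) with the date block. With 1 library left out it was between 0 and 8: 0 without FMC 2, FMC 3, FM 1 or FM 2, and 8 (4 higher, 4 lower) without FMC 4. At an unadjusted limma p under 0.05 these counts of 0 came with 446 genes (mean filter), 1021 (sex), 849 (replicate block) and 683 to 1086 (1 library left out), against 973 in the fit reported. Where an FM library is left out, the other is assumed to vary like FMC. The causes were not tested. The median difference over all genes, -0.12, became -0.0058 under median ratio scaling and 0.035 under quantile normalization. Dusp6 was 0.029 under median ratio scaling, 0.058 with the date block and -0.45 to 0.21 with 1 library left out. Etv5 was 0.35 with the date block and -0.51 to 0.28 with 1 library left out, and Spred2 -1.44 to 0.36. Dusp10 was 0.018 with the replicate block and -2.12 to 0.30 with 1 library left out. Spry1 (13 alternatives), Spry2 (12) and Spred1 (16) kept their sign in each fit that could test them, Spry1 from -2.97 to -1.36 and Spry2 from -2.98 to -1.20. These counts are not independent checks. All fits reuse the same libraries, and other filters, no intensity trend and sex as a covariate leave the estimate unchanged. Leaving out a library cannot turn the sign of Spry2, since its groups do not overlap. The unadjusted limma p of Spry2 ran from 0.0357 (array weights) to 0.151 (replicate block), with 0.0847 without FMC 1. Replicate numbers are shared by FMC and FM for numbers 1 and 2. Deviations from the group means of libraries with the same number correlated at 0.031 and -0.057 over 18208 genes. With 2 FM libraries, the deviations of FM 1 and FM 2 mirror each other. These values therefore cannot decide whether the numbers pair the libraries. The replicate block called 0 genes. Dusp4, Dusp5, Spry4 and Phlda1 were under the filter and had only the permutation test, which cannot pass the threshold with these group sizes.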
